A study of Mus musculus with 4 samples.

Results

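The genes described here are 7 subunits of the GABA-A receptor, 4 of the alpha class (Gabra2, Gabra3, Gabra4 and Gabra5), 2 of the beta class (Gabrb1 and Gabrb2) and the delta subunit (Gabrd). They were chosen by gene symbol, and 7 of 7 were found among the 15409 gene rows of the deposited files. All 7 passed the filter on low values, an average of 1 CPM or more (CPM is the read count scaled to a library total of 1000000), and had between 485 and 3593 reads in a library. RNA was sequenced from brain septal tissue of mice that lack TCRb, a chain of the T cell receptor (TCRb-/-), and of wild-type (WT) mice. All mice of both genotypes had been restrained for 30 min in DecapiCones on 3 days, with death 1.5 h after the last session, so no unstressed group is compared here. Each genotype had 1 library in experiment 1 and 1 in experiment 2, and each library pooled tissue of 4 to 5 mice. The sources used here do not give strain, age or sex, and all tissue of a pool counts as 1 replicate.

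GABA-A receptors are pentameric chloride channels opened by the transmitter GABA, and they carry most fast inhibition in the brain. Most receptors combine alpha and beta subunits, whose interface binds GABA, with a gamma subunit that helps to place the receptor at synapses. Where delta takes the place of gamma, typically beside alpha4, the receptor lies outside synapses, gives a tonic current and responds strongly to neurosteroids, some of which rise in stress. The septum is built largely of GABA-releasing neurons that receive GABA input from one another and from the hippocampus.

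Library totals ran from 19988137 to 26210790 reads, and the 95% exact Clopper-Pearson interval of a member's CPM reached at most 9.31% from its value, which covers counting error only. The septal label was set beside 16 septum markers, of which 14 were listed, with a summed level between 330 and 377 CPM in the 4 libraries. Striatum markers summed to between 1181 and 4826 CPM and choroid plexus markers to between 1341 and 7006 CPM. These sums do not show how much of the tissue was septal. Zic4 and Zic1, patterning factors of the septum, had between 37.0 and 57.3 CPM and between 34.6 and 51.5 CPM. Drd3 and Nkx2-1 were not analysed here. Marker lists of neighbouring regions differed widely between libraries and are given beside the results they move with.

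Some of the receptor genes lie in clusters. On chromosome 5 of GRCm38, Gabra2 spans 70957597 to 71095849 and Gabra4 spans 71569749 to 71658308, both on the minus strand beside Gabrg1 (70751047 to 70842617, minus strand), and Gabrb1 spans 71658113 to 72149037 on the plus strand. Gabra4 and Gabrb1 are thus head to head, and their annotated 5′ exons share 46 bases on opposite strands. That is 0.756% of the exonic bases of Gabra4 and 0.332% of those of Gabrb1. How reads in that stretch were counted is not known, because the strand setting of the counting is not given. Gabrb2 lies on chromosome 11 from 42419757 to 42629028 (plus strand), Gabra5 on chromosome 7 from 57407672 to 57510059, Gabra3 on chromosome X from 72432681 to 72656848 and Gabrd on chromosome 4 from 155384980 to 155398112, the last 3 on the minus strand. Gabra5 shares 148 exonic bases (4.98%) with the predicted gene Gm9962 on the other strand.

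Promoter sequence from RefSeq (GRCm38.p6) matched 6 of the 7 genes, the exception being Gabrd. The stretches below are shown because Gabrb2 and Gabra4, like Gabrd, were called in the comparison of experiments, and Gabra3 and Gabra2 had the lowest TCRb-/- to WT ratios. Each is the 250 bases before the most upstream start in that table, written 5′ to 3′ on the strand of the gene, and the stretch of Gabra4 stops where an exon of Gabrb1 begins. The RefSeq start of Gabrb2 lies inside the gene as GENCODE places it, so its stretch lies downstream of the gene start given above, between annotated exons. They are chr11:42420190-42420439 (Gabrb2, plus strand), chr5:71658364-71658558 (Gabra4, minus), chrX:72656920-72657169 (Gabra3, minus) and chr5:71095850-71096099 (Gabra2, minus). Capitals mark matches to the motifs searched.
Gabrb2: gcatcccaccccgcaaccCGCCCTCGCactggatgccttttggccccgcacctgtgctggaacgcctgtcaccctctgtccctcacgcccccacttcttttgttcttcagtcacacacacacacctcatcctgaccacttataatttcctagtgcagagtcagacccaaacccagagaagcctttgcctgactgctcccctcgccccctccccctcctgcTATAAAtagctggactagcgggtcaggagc
Gabra4: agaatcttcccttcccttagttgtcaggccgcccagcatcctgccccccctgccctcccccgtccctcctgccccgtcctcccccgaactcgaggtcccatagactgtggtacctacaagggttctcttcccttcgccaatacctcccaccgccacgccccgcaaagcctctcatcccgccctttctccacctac
Gabra3: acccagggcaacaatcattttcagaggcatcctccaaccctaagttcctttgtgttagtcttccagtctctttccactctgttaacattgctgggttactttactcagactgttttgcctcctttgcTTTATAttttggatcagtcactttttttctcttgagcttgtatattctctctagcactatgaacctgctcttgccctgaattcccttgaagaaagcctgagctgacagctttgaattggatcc
Gabra2: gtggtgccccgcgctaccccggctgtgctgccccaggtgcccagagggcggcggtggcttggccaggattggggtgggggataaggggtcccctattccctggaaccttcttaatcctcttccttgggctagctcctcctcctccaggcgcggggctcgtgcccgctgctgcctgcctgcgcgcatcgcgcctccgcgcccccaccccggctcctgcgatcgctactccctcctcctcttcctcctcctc

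Motifs were searched on both strands of the 250 bases, namely the cyclic AMP element TGACGTCA, the EGR site GCGNGGGCG, the TATA box TATAAA and the AP-1 site TGANTCA. Gabrb2 held a TATA box that begins 30 bases before the start and an EGR match that begins 232 bases before it. Gabra3 held TATAAA on the reverse strand, beginning 123 bases before the start. The other 4 stretches matched none of these letters. Of 32851 promoter stretches of the same length, 12.4% held TATAAA, 4.70% the EGR site, 6.75% the AP-1 site and 1.55% the cyclic AMP element. The base composition of the members differed widely, with a GC content of 70.0% and 18 CpG dinucleotides for Gabra2 against 42.4% and 0 for Gabra3. The median over all stretches was 52.4% GC and 6 CpG.

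The level of each subunit was first set out in every library. Gabra4, the benzodiazepine-insensitive partner of delta, had 143 and 115 CPM in TCRb-/- experiments 1 and 2 and 137 and 119 CPM in WT. Gabrb1, a beta subunit, had 88.8 and 104 CPM in TCRb-/- and 98.6 and 102 CPM in WT. Gabra5, an alpha subunit known for extrasynaptic receptors of the hippocampus, had 88.6 and 81.9 CPM in TCRb-/- and 91.2 and 89.2 CPM in WT. Gabra4 was lower and Gabrb1 higher in both libraries of experiment 2 than in either library of experiment 1, and Gabra5 overlapped between experiments.

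Gabra3, known from the reticular thalamus, cholinergic and monoamine neurons, had 46.9 and 47.3 CPM in TCRb-/- experiments 1 and 2 and 56.2 and 57.1 CPM in WT. Gabra2, an alpha subunit of forebrain synapses linked to the calming action of benzodiazepines, had 47.3 and 40.9 CPM in TCRb-/- and 53.0 and 47.0 CPM in WT. For Gabra3 the genotypes did not overlap and the experiments did; for Gabra2 the TCRb-/- library of experiment 1 lay just above the WT library of experiment 2.

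Gabrd, the delta subunit, had 67.8 and 33.3 CPM in TCRb-/- experiments 1 and 2 and 65.7 and 36.9 CPM in WT. Gabrb2, a beta subunit common in synaptic receptors, had 36.4 and 24.3 CPM in TCRb-/- and 41.6 and 23.9 CPM in WT. For both genes, each library of experiment 2 lay far below each library of experiment 1, in either genotype.

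**Figure D1:**
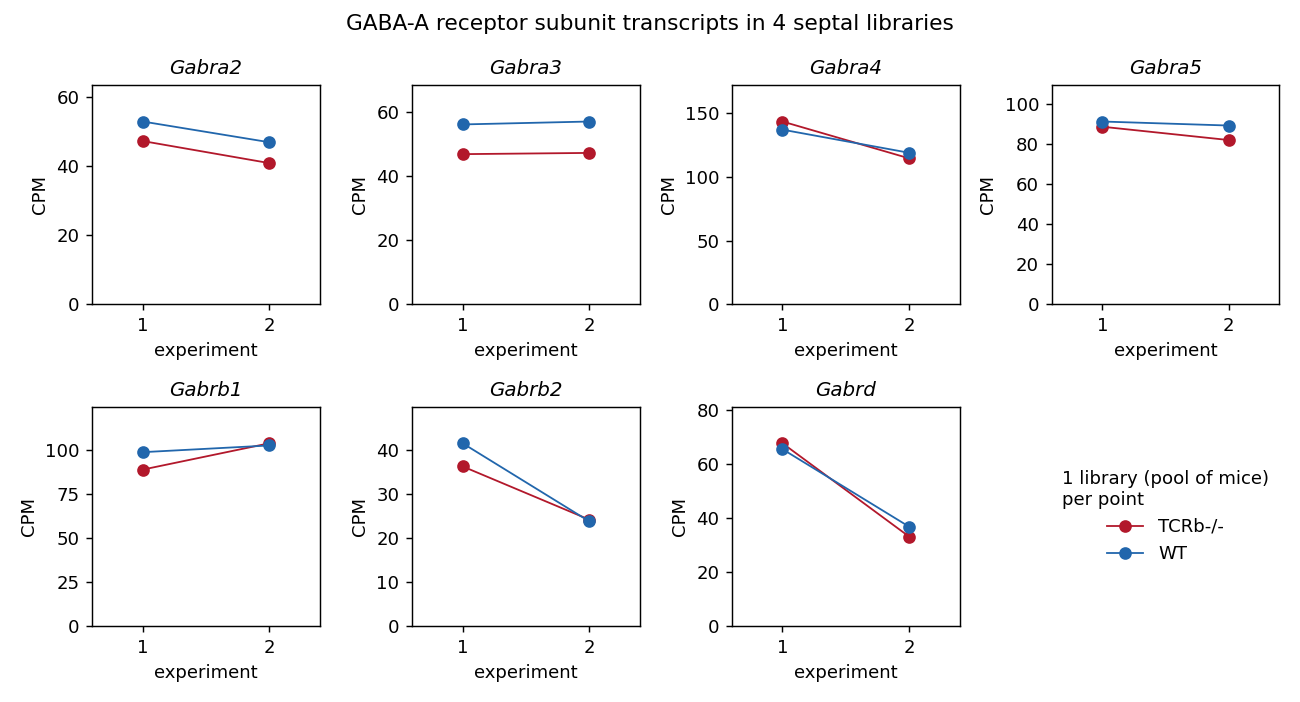
CPM (vertical axis, from 0) of each subunit by experiment (horizontal axis), with 1 point per pooled library, TCRb-/- in red and WT in blue, and a line that joins the libraries of a genotype. Gabrd and Gabrb2 drop from experiment 1 to experiment 2 in both genotypes, and the TCRb-/- points of Gabra3 (46.9 and 47.3 CPM) lie below the WT points (56.2 and 57.1 CPM).

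Levels of different subunits were compared per kb of the longest annotated transcript. Gabra5 (32.8 CPM per kb, range 30.7 to 34.1 over the 4 libraries) and Gabra4 (31.3, 27.9 to 34.9) were highest among the 7, and their ranges overlapped. Gabrd (18.8, 12.3 to 25.1) and Gabra3 (14.2, 12.8 to 15.6) came next, and their ranges overlapped too. Gabra2 (8.04, 6.99 to 9.05), Gabrb2 (7.91, 5.99 to 10.4) and Gabrb1 (7.16, 6.46 to 7.55) were lowest and did not differ beyond their spread. The order depends on the length used, since the longest Gabrb1 transcript has 13737 bases, of which 1422 are coding. Per kb of coding length, Gabrb1 (69.2, 62.4 to 72.9) stood between Gabra4 (74.1, 66.1 to 82.7) and Gabra5 (63.2, 59.0 to 65.6), with overlapping ranges, and only Gabra2 kept its rank.

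Of 9 further subunits of the family looked for, 5 were listed. Gabrg1 (14.4 CPM per kb of transcript, 12.5 to 16.1), a gamma subunit, overlapped Gabra3. Gabrq (3.22), Gabrg3 (2.41), Gabrr2 (1.63) and Gabre (0.626 CPM per kb of transcript) lay below all 7 in every library. Per kb of coding length, Gabrg1 (49.4, 42.8 to 55.2) stood between Gabra5 and Gabrd and overlapped Gabrd, and Gabrg3 (16.8, 14.3 to 20.4) overlapped Gabrb2.

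**Figure D2:**
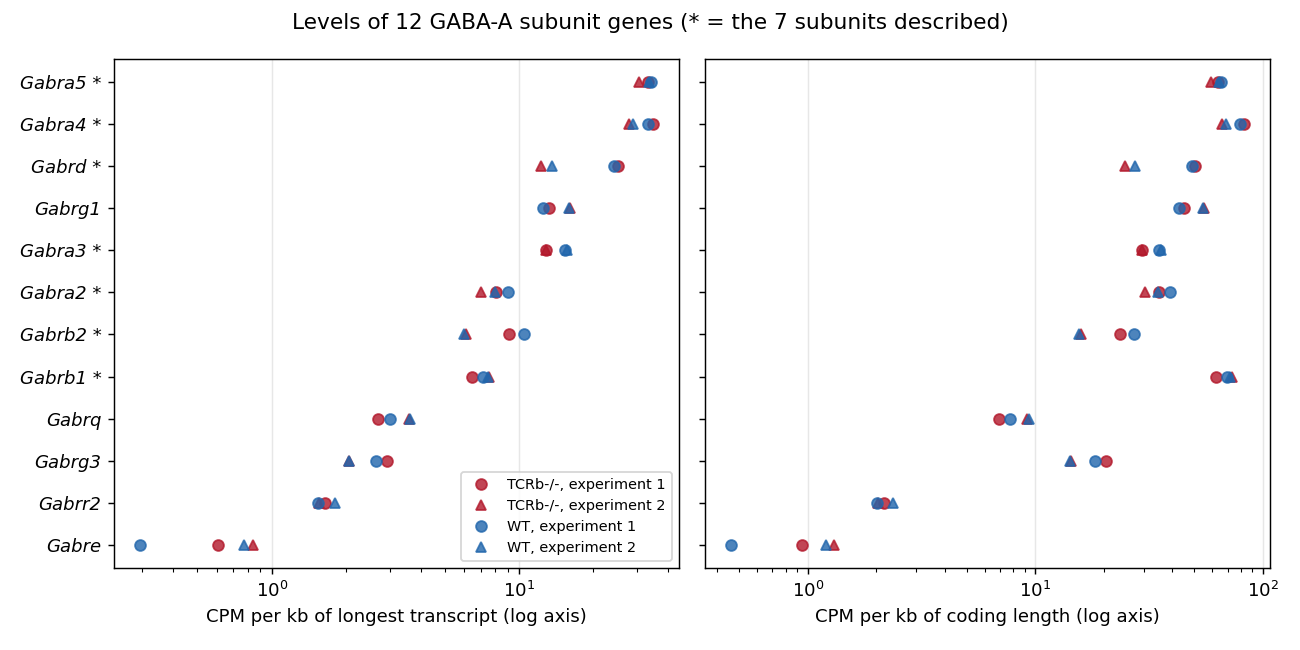
Level of 12 GABA-A subunit genes in CPM per kb of the longest transcript (left) and of coding length (right), both on log axes, with 1 point per library (red TCRb-/-, blue WT, circles experiment 1, triangles experiment 2) and the 7 subunits described marked by a star. Gabrb1 moves from the lowest of the 7 on the left (7.16) to the second highest on the right (69.2).

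The genotype comparison asked whether loss of TCRb changed these transcripts in the stressed septum, and none of the 7 passed the adjusted threshold. In the limma fit on genotype alone, 0 of 7 were called, where 0 of 13912 genes (0%) were called in all and 43 had an unadjusted p under 0.05. With the experiment as a block it was 0 of 7 against 2 genes (0.0144%) in all, 1 higher (0.00719%) and 1 lower (0.00719%). Of the 7, 0 had an unadjusted limma p under 0.05 without the block and 1 (Gabra3) with it, against 784 genes (5.64%). The median log2 difference of the 7, TCRb-/- minus WT, was -0.08, beside 0.00069 over all genes.

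Among the alpha subunits, Gabra3 had the lowest log2 difference, -0.26 (SE 0.12, adjusted p 1.00 in limma), a TCRb-/- level 0.835 times that of WT. The difference was -0.26 within experiment 1 and -0.27 within experiment 2, each with a counting SE of 0.06. With the block the unadjusted p was 0.0117 and the adjusted p 0.848, and Gabra3 ranked 169 among all genes by that p. Gabra3 was thus lower in TCRb-/- in both experiments without passing the correction. Gabra3 lies on chromosome X, and the 4 Y-linked genes listed summed to 98.0 and 101 CPM in TCRb-/- experiments 1 and 2 and to 115 and 105 CPM in WT, so the summed Y-linked level was also lower in TCRb-/- in both. The median difference of the 4 Y-linked genes was -0.25 within experiment 1 and -0.02 within experiment 2, and 0 were called by genotype. Xist was not analysed here. Among tissue markers, choroid plexus genes had a median TCRb-/- minus WT difference of 0.58 (0.55 within experiment 1 and 0.60 within experiment 2, 1 gene called with the block). The medians were -0.50 for striatum genes (0.16 and -1.17) and 0.25 for thalamus genes (-0.13 and 0.69). In these lists the sign changed between experiments and 0 genes were called by genotype. The part of pool or tissue composition in the Gabra3 difference was not tested.

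Gabra2 had a log2 difference of -0.18 (SE 0.15), at -0.16 within experiment 1 and -0.19 within experiment 2. Gabra5 had -0.08 (SE 0.12), at -0.04 and -0.12. Gabra3 and Gabra5 were the members whose TCRb-/- libraries both lay below both WT libraries, a pattern that 8.04% of all genes showed in that direction and 9.76% in the other. Gabra4 had a fitted difference of 0.01 (SE 0.16), Gabrb1 -0.07 (SE 0.14), Gabrb2 -0.08 (SE 0.32) and Gabrd -0.05 (SE 0.41). In these 4 the sign of the difference was not the same in both experiments. The SEs of all members in this fit hold the difference between experiments. With the block the SE was 0.08 for Gabra2, Gabra3 and Gabrb1 and 0.07 for Gabra4 and Gabra5. It was 0.10 for Gabrb2 and 0.09 for Gabrd.

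**Figure D3:**
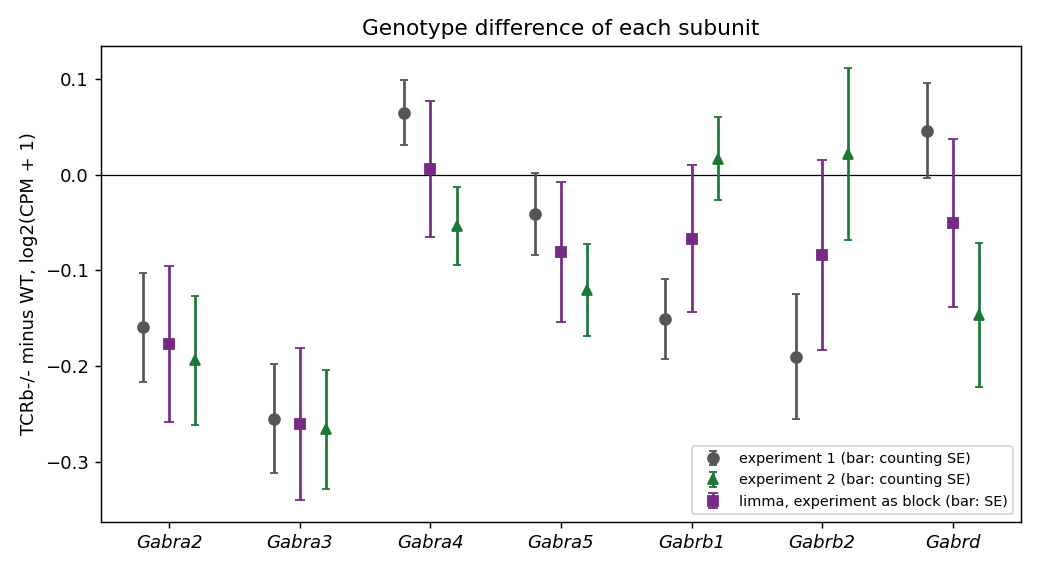
TCRb-/- minus WT difference in log2(CPM + 1) of each subunit (vertical axis), within experiment 1 (grey circles) and experiment 2 (green triangles), with counting SEs, and from limma with the experiment as a block (purple squares, SE). Gabra3 sits at -0.26 and -0.27 in the 2 experiments, whereas the points of Gabra4, Gabrb1, Gabrb2 and Gabrd fall on both sides of 0.

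The experiments were compared next, with both genotypes on each side, because each genotype has 1 library in each of them. Gabrd and Gabrb2 fell from experiment 1 to experiment 2, to 0.532 and 0.628 times their level, and Gabra4 fell to 0.834 times. In limma, 3 of 7 were called, 0 higher and 3 lower in experiment 2. Over all genes 3292 of 13912 (23.7%) were called, 8.95% higher and 14.7% lower. With the block it was the same 3 of 7 against 24.7% of genes (9.29% higher, 15.4% lower), and under quantile normalization 3 of 7 against 23.2%. The share of calls that were higher was 37.8% here and 50.6% under quantile normalization, and the median over all genes was -0.03 and 0.02. The median difference of the 7 was -0.19. Libraries of the 2 experiments did not overlap for 5 members, lower in experiment 2 for Gabra2, Gabra4, Gabrb2 and Gabrd, where 37.2% of all genes were, and higher for Gabrb1, where 30.1% were.

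Gabrd differed by -0.91 on the log2 scale (SE 0.08, adjusted p 0.00264 in limma), at -1.01 in TCRb-/- and -0.81 in WT. Gabrb2 differed by -0.67 (SE 0.10, adjusted p 0.00663), at -0.56 in TCRb-/- and -0.78 in WT. Within the beta members, the share of Gabrb2 in the summed CPM per kb of transcript was 58.5% and 59.2% in TCRb-/- and WT of experiment 1, and 44.6% and 44.5% in experiment 2. Per kb of coding length that share was 27.5% and 28.1% and then 17.8% and 17.8%, so which beta member is the larger depends on the length used, while the share was lower in experiment 2 on both scales. Delta took 19.3% and 18.1% of the summed level of the 7 in experiment 1 and 11.8% and 12.1% in experiment 2.

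Gabra4 differed by -0.26 (SE 0.07, adjusted p 0.0265 in limma), at -0.32 in TCRb-/- and -0.20 in WT. Its call was lost without the mean-variance trend (0.0972). It was also lost without TCRb-/- replicate 1 (adjusted p 0.0936), TCRb-/- replicate 2 (0.122) or WT replicate 1 (0.0513) and held without WT replicate 2. Its head-to-head neighbour Gabrb1 had a difference of 0.14 (SE 0.07, adjusted p 0.210), at 0.22 and 0.05. Gabra2 had -0.19 (SE 0.10, adjusted p 0.200), Gabra5 -0.07 (SE 0.07, adjusted p 0.504) and Gabra3 0.02 (SE 0.12, adjusted p 0.930). Of the 3 members in the chromosome 5 cluster, 1 was thus called, lower, and the fourth gene there, Gabrg1, was called higher (0.32, adjusted p 0.0183). Over all genes 14.7% were called lower and 8.95% higher, and so few genes give no result about the cluster.

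Transcript length moved with the difference between experiments, with a Spearman rho of -0.446 across 13552 genes, which are not independent replicates. With a trend on length removed from each library, limma called 2019 of 13552 genes (14.9%; 7.16% higher and 7.73% lower) and again 3 of the 7, though not the same 3. Gabrd (-0.94, adjusted p 0.00310) and Gabrb2 (-0.58, 0.0131) kept their calls. Gabra4 lost its call (-0.16, 0.152), and Gabrb1, whose longest transcript is the longest of the 7, gained one in the higher direction (0.38, 0.0156). Gabra2 went from -0.19 to 0.02.

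**Figure D4:**
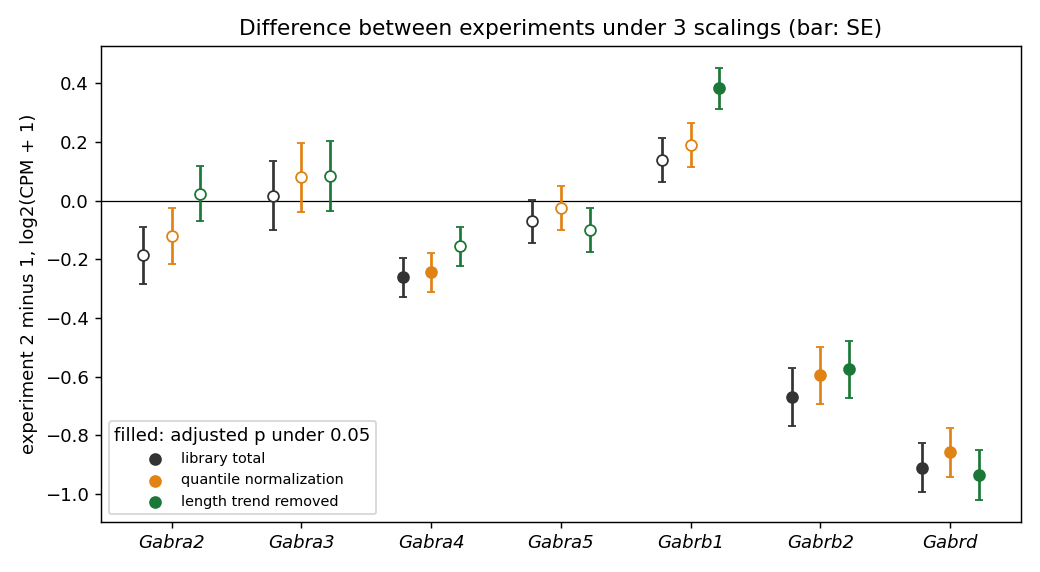
Experiment 2 minus experiment 1 difference in log2(CPM + 1) of each subunit (vertical axis; bars are SEs) with values scaled to the library total (black), after quantile normalization (orange) and with a trend on transcript length removed (green), filled where the adjusted p is under 0.05. Gabrd and Gabrb2 are filled and negative under all 3 scalings, Gabra4 is filled under the library total and quantile normalization, and Gabrb1 is filled with the length trend removed.

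Region markers also differed between the experiments, and their counts are read against 14.7% of all genes called lower and 8.95% called higher. Of 15 striatum genes tested, 14 were called lower in experiment 2, and their summed level was 4826 and 4310 CPM in TCRb-/- and WT of experiment 1 and 1181 and 2491 CPM in experiment 2. Of 16 cortex and hippocampus genes, 9 were called lower and 1 higher (summed 794 and 840 CPM, then 399 and 473 CPM). Of 14 thalamus genes, 8 were called higher and 0 lower (877 and 878 CPM, then 1973 and 1377 CPM), as were 6 and 0 of the 10 tested among 13 listed hypothalamic and preoptic genes (292 and 377 CPM, then 699 and 606 CPM). Choroid plexus genes had 16 of 17 called higher (2192 and 1341 CPM, then 7006 and 4265 CPM). No gene of these lists had 0 reads in a library. Gabrd and Gabrb2 moved in the direction of the striatum, cortex and hippocampus lists. So did Gabra4 (-0.26) and, without calls, Gabra2 (-0.19) and Gabra5 (-0.07), whereas Gabrb1 (0.14) and Gabra3 (0.02) had differences above 0, also without calls. The part of tissue composition in these differences was not tested. In bulk tissue, fewer cells of a type and less RNA per cell cannot be told apart.

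The 18 pan-neuronal genes summed to 10262 and 11343 CPM in TCRb-/- and WT of experiment 1 and to 11379 and 11346 CPM in experiment 2, with 5 called higher and 3 lower (median 0.09), where 23.7% of all genes were called. The 7 subunits summed to 519 and 543 CPM and then to 446 and 475 CPM.

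**Figure D5:**
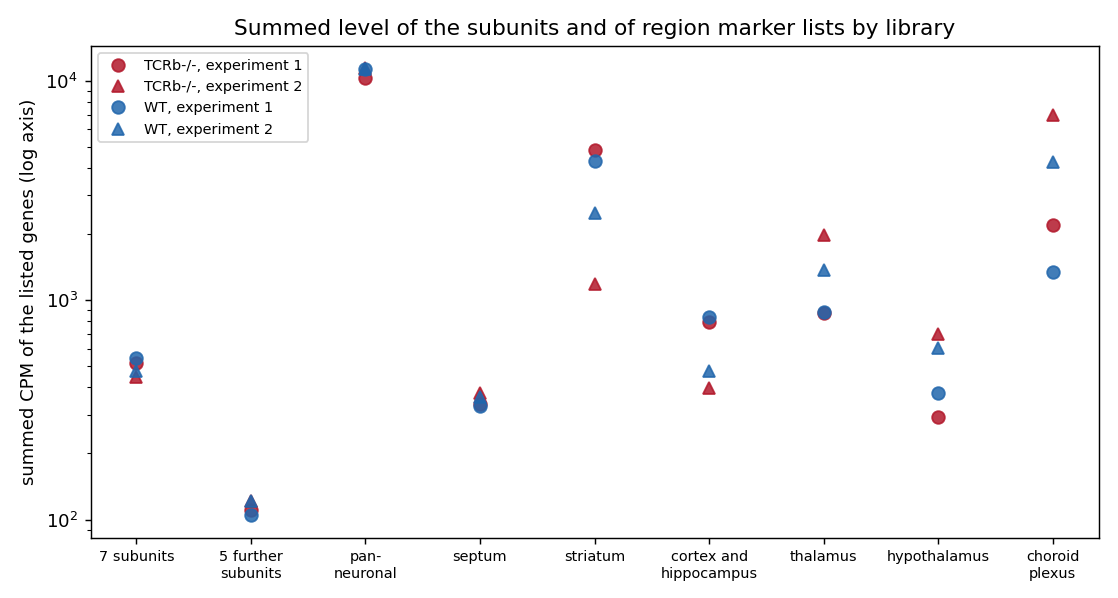
Summed CPM (vertical log axis) of the 7 subunits, the 5 further subunits and lists of neuronal and regional marker genes in each library (red TCRb-/-, blue WT, circles experiment 1, triangles experiment 2). The 7 subunits range from 446 to 543 CPM, whereas striatum markers range from 1181 to 4826 CPM and choroid plexus markers from 1341 to 7006 CPM.

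Of the 5 further subunits, 1 was called higher and 1 lower in experiment 2, with a median of 0.32, beside 8.95% higher and 14.7% lower over all genes. Gabrg1 rose (0.32, adjusted p 0.0183 in limma) and Gabrg3, another gamma subunit, fell (-0.42, 0.0248). Both calls were lost without the mean-variance trend (adjusted p 0.0710 and 0.0578 in limma). The call of Gabrg1 was also lost without TCRb-/- replicate 2 or WT replicate 1, and that of Gabrg3 without either of these, without TCRb-/- replicate 1 and with the length trend removed. Gabre had 0.64, Gabrq 0.32 and Gabrr2 0.06, none of them called. With the length trend removed, Gabrq gained a call in the higher direction (0.50, adjusted p 0.0275 in limma), also with the block (0.0271). Gabre (0.77) gained one with the block (adjusted p 0.0443 in limma) but not without it (0.0659). By genotype, 0 of 5 were called in limma with or without the block.

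Of 11 scaffold and adhesion genes of the inhibitory synapse, 1 was called higher and 5 lower in experiment 2 (median -0.18), beside 8.95% higher and 14.7% lower over all genes (median -0.03). Counts in the lists that follow are read against the same shares. The lowest were Shisa7 (-0.63), an auxiliary protein of GABA-A receptors, Dag1 (-0.60), which encodes dystroglycan, and Lhfpl4 (-0.51), a transmembrane protein that links GABA-A receptors to the synapse. Gphn, the gephyrin scaffold itself, had 61.5 and 63.8 CPM in TCRb-/- and 68.6 and 61.2 CPM in WT (-0.06, adjusted p 0.652). Nlgn2, the adhesion protein of inhibitory synapses, had between 14.9 and 16.7 CPM (0.05, 0.776). Neither Gphn nor Nlgn2 was thus called, and for both the experiments overlapped. The call of Lhfpl4 was lost without the mean-variance trend (adjusted p 0.0528 in limma).

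Of 18 genes for receptor assembly and trafficking, 3 were called higher and 5 lower (median -0.08), beside 8.95% and 14.7% over all genes. Kif5a (-0.86), a kinesin motor, and Trak2 (-0.76), a motor adaptor, fell, and Rdx (0.64), the anchor radixin that holds alpha5 receptors outside synapses, rose. Of 6 GABA-B receptor genes, 1 was called, lower, a share near the 14.7% over all genes. It was Gabbr2 (-0.31, adjusted p 0.0470), and its partner Gabbr1 had 0.0090. Of 12 genes for the chloride gradient, 1 was called higher and 2 lower, which is near the 8.95% and 14.7% over all genes. Slc12a5, the chloride exporter KCC2 that makes GABA inhibitory, fell (-0.43, adjusted p 0.0103), Slc4a3, an anion exchanger, fell (-0.24), and Stk39, the kinase SPAK that acts on chloride cotransporters, rose (0.38). The importer Slc12a2 had 0.14 (0.272) and was not called. It gained a call in the higher direction with the length trend removed (0.36, adjusted p 0.0323 in limma), also with the block (0.0311). With the length trend removed, the calls of Gabbr2, Slc12a5 and Slc4a3 were lost, and without the mean-variance trend these 3 and those of Rdx and Stk39. The calls of Gabbr2 and Slc4a3 were also lost under median-of-ratios scaling and quantile normalization. Those of Gabbr2 (without TCRb-/- replicate 1 or WT replicate 2), Rdx (without TCRb-/- replicate 1), Stk39 (without either TCRb-/- replicate) and Slc4a3 (without any single library) also rested on single libraries.

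Of 5 neurosteroid and endozepine genes tested, 2 were called higher in experiment 2, Tspo (0.69), a mitochondrial protein linked to steroid synthesis, and Dbi (0.40), which encodes the endogenous ligand of the benzodiazepine site. With the length trend removed, the call of Dbi was lost with or without the block and that of Tspo without it (adjusted p 0.0823 in limma) but not with it (0.0319). Without the mean-variance trend neither call held, and leaving out TCRb-/- replicate 2 (Tspo) or WT replicate 1 (Dbi) also ended one. The lists of scaffold, trafficking, GABA-B, chloride and neurosteroid genes had 0 calls by genotype in limma, with or without the block, and medians between -0.05 and 0.06.

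The genes whose pattern over the 4 libraries was most like each member were found by the root-mean-square difference of centred log2(CPM + 1) values among 9814 genes that averaged 10 CPM or more. For Gabrd these were Sec14l1 (0.0116) and Ddx26b (0.0216), and for Gabrb2 they were Mcm3ap (0.00726) and Smim13 (0.0115). Gabra4 was nearest to Akap11 (0.00431) and C330006A16Rik (0.00904), and Gabrb1 to Nefm (0.00514) and Tpd52 (0.00627). Gabra3 was nearest to Triqk (0.0162) and Zfp868 (0.0193), Gabra2 to Ldah (0.00887) and Frat2 (0.0101), and Gabra5 to Dusp10 (0.0012) and Ppp1r12a (0.00524). Among the members themselves, Gabra2 and Gabra5 were the closest pair (0.0760), Gabrb2 was closest to Gabrd (0.158), and Gabrb1 and Gabrd were farthest apart (0.532). With 4 libraries such nearness is a description of these libraries.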

How the data were processed

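RNA from cleared septal lysate was made into SMARTer ultra-low-input libraries for sequencing (Illumina HiSeq), per the labels' protocols. Replicates are pools of mice. The submitters' processing notes name HISAT2 2.1.0, SAMtools 1.3, HTSeq 0.9.1, R 4.0.5, limma 3.46.0 and the mm10 build, with no role or order. The deposited files held log2 values, 1 library per file. Each deposited log2 value matched the log2 of CPM computed from reads plus 0.5 and library total plus 1, and whole read counts came out for 100% of values within 0.001 reads. Of 15426 rows, 17 spike-in rows were left out.

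CPM of the library total was transformed to log2(CPM + 1), a scale on which low genes change less than in CPM. The 13912 genes averaging 1 CPM or more were tested with limma 3.58.1 in R 4.3.3 (mean-variance trend, two-sided, Benjamini-Hochberg adjustment, threshold 0.05), by genotype and by experiment. The script was tested on simulated data. The simulated effects were larger than any genotype difference of the members, and the genotype run held no difference between experiments. It thus does not show whether differences of the members' size would be called. With 2 libraries against 2, an exact permutation test cannot give a p below 0.333. Each genotype had 1 pool in each experiment, so p-values do not measure the spread between like pools. Without the block, the spread used for genotype holds the difference between experiments, and that used for experiment holds the difference between genotypes. With the block it is the change of the genotype difference between experiments. In each fit limma moderated this spread over all genes. Lengths and loci came from GENCODE vM21 (GRCm38, which mm10 denotes). Python 3.11.15 with pandas 2.3.3 was used for the other steps.

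Per the labels, replicates 1 and 2 come from experiments 1 and 2, which pairs them across genotypes. Deviations of same-numbered libraries correlated at 0.719 across genes. Replicates of a genotype differed beyond counting noise (chi-square per degree of freedom 52.1 and 30.3). The members and gene lists were chosen with earlier results of these data known. Y-linked genes were added after seeing the data. Some genes of the lists are not reported here and were left out of their counts. All members and the further listed subunits were named, with Gphn, Nlgn2, Gabbr1, Gabbr2, Slc12a5 and Slc12a2, and up to 3 called genes with the largest difference from each other list. Astrocyte, oligodendrocyte and microglia lists had 2 of 14, 1 of 14 and 1 of 13 tested genes called between experiments, each lower in experiment 2. The septum list had 2 higher and 1 lower of 14. Over all genes 8.95% were called higher and 14.7% lower. Alternatives were other scalings, pseudocounts, filters, moderation without a trend, the block, removal of a length trend and leaving out each library.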

Additional observations from a re-analysis of the deposited data

Results flagged for a closer look

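In 4 members the TCRb-/- minus WT difference had opposite signs in the 2 experiments, and the difference between experiments was not tested, since each has 1 library per genotype. For Gabrb2 the difference in log2(CPM + 1) was -0.19 in experiment 1 and 0.02 in experiment 2, a change of 0.21. Gabrd went from 0.05 to -0.15, a change of -0.19. Gabrb1 went from -0.15 to 0.02, a change of 0.17. Gabra4 went from 0.07 to -0.05, a change of -0.12. Between the same experiments the median TCRb-/- minus WT difference of striatum markers went from 0.16 to -1.17 and that of thalamus markers from -0.13 to 0.69, and their part in these changes was not tested. The counting SEs of the single differences in these genes ran from 0.03 to 0.09.

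The spike-in rows, which no comparison used, took between 0.0160% and 0.0244% of the reads of a library.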

How the results depend on the processing

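The call of 0 members by genotype held under every alternative run. For the members, 133 of 140 values under an alternative with all libraries kept their direction and side of the threshold, as did 44 of 56 with 1 library left out. The filters, moderation without a trend and the block leave a member's difference unchanged by construction. Under these only the side of the threshold could change. Genes changed by genotype numbered 0 in the main fit, 2 with the replicate block and 2 with the length trend removed and the replicate block. The block changed no member's call. Genes changed between experiments numbered 629 without a trend, 2019 with the length trend removed and 2106 with that trend removed and the replicate block. Gabra4 lost its call between experiments without a trend (-0.26) and with the length trend removed, with or without the block (-0.16). Gabrb1 gained one with the length trend removed (0.38), and Gabra2 changed sign (0.024), each with or without the block. Why these moved was not tested. With coding length in place of transcript length, 1 of 7 members kept its rank, and the mean shares became 61.7% for alpha, 27.1% for beta and 11.2% for delta members. Among other named genes between experiments, those near 0 changed sign, Gabbr1 under quantile normalization (-0.012), and with the length trend removed, with or without the block, Gabrr2 (-0.044) and Gphn (0.0045).

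Leaving out 1 library unbalances the experiments by construction, and the lone sample is assumed to vary like the others. Genes by genotype ranged from 0 to 47 (47 without TCRb-/- replicate 1, 1 without TCRb-/- replicate 2), genes between experiments from 1406 (without TCRb-/- replicate 1) to 3390 (1637 when WT replicate 1 was left out, 1823 when TCRb-/- replicate 2 was), and members between experiments from 2 to 3. By genotype, Gabra4 ranged from -0.15 to 0.17, Gabrb1 from -0.18 to 0.044, Gabrb2 from -0.47 to 0.30 and Gabrd from -0.55 to 0.45. Between experiments, Gabra3 ranged from -0.12 to 0.15, Gabra4 from -0.29 to -0.23, Gabrr2 from -0.025 to 0.14, Gphn from -0.13 to 0.021, Nlgn2 from -0.0046 to 0.11 and Gabbr1 from -0.15 to 0.17. The lowest member count was 485 reads, and counting SEs of a genotype difference within an experiment ran from 0.03 to 0.09. The effect of depth was not tested.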
